A study of Mus musculus with 6 samples.

Results

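The Hox genes encode homeodomain transcription factors and lie in 4 clusters, HoxA to HoxD, on mouse chromosomes 6, 11, 15 and 2. DNA methylation over 38 of them was described in lung endothelial cells, the cells that line the blood vessels of the lung. The 38 members were chosen by name and not by a cut on measured values, though with earlier results of these data known. All were found among the 47038 autosomal genes of the RefSeq gene table. The cells were sorted by flow cytometry from wild-type mice and fall into a group titled aged (3 samples), taken as the group of 18 months, and a group titled mAdu (3 samples), taken as the group of 8 months. The labels give no transgene, treatment or other allele for either group. They also leave unsaid whether each sample is a separate mouse, so the p-values rest on a spread between samples that may be technical.

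In the embryo, the order of the Hox genes along each cluster matches the order in which they are switched on and the position along the body axis at which they act. Genes of group 1 act in the hindbrain and genes of group 13 at the tail end, and genes with the same group number in different clusters, called paralogs, are descended from one ancestral gene. Hox promoters are rich in CpG dinucleotides, the sites of DNA methylation in mammals, and in cells that do not express them the clusters are typically held silent by Polycomb repressor complexes rather than by dense methylation. Adult cells keep a record of where in the body they arose in the Hox genes they express, and Hoxa5 in particular is required for the formation of the mouse airways and lung.

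The measured values are mean methylation levels of 1000-bp windows on mm10, from tagmentation-based whole-genome bisulfite sequencing, in which unmethylated cytosines are converted before sequencing. They are given here in percent, and differences, always aged minus mAdu, in percentage points. The table holds 1683697 windows with a value in all 6 samples, of which 585 lie in the 4 clusters or within 20 kb of them and 451 lie between the outer edges of the first and last member. Read depth is unknown, so precision is judged only from the spread between samples. The mean over all windows lay between 73.1% and 73.7% in the 6 samples, and the median window was at 77.9%. The cell type label was compared with marker genes: the median level over the gene span was 39.4% for 10 endothelial markers, from 1.18% at Cldn5 to 67.1% at Tie1. The same median was 67.9% for the 6 markers of epithelium, 70.5% for 6 of blood cells and 72.2% for 6 of mesenchyme.

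The sequences around which the results turn are the promoters that stood at the extremes of methylation and of CpG content. RefSeq (GRCm38.p6) gives 24 promoters for 22 of the 38 genes, each running from 250 bases before to 50 bases after a transcription start. The first 3 are the promoter with the highest CpG number of the 24 (Hoxa13), that of the gene required for lung formation (Hoxa5) and the one with the lowest level of the 24 (Hoxa2). The last 2 are the only promoters of the 24 above 20% (Hoxb1 and Hoxa7). Each is written 5′ to 3′ on the strand of the gene, with every CG in capitals.
Hoxa13 promoter, chr6:52260831-52261130, minus strand: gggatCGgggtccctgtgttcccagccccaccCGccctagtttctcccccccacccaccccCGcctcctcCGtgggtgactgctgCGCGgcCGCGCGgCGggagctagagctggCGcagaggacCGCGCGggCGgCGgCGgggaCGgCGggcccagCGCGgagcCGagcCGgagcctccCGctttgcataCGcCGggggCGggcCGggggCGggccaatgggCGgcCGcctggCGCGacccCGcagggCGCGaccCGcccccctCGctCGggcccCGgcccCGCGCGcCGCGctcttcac
Hoxa5 promoter, chr6:52204538-52204837, minus strand: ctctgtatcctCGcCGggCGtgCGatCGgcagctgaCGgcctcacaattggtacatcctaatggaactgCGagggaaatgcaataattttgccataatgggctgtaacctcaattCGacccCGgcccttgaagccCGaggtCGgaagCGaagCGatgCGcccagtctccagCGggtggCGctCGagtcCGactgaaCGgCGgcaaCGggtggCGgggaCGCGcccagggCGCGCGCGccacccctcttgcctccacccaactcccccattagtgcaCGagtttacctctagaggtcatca
Hoxa2 promoter, chr6:52164782-52165081, minus strand: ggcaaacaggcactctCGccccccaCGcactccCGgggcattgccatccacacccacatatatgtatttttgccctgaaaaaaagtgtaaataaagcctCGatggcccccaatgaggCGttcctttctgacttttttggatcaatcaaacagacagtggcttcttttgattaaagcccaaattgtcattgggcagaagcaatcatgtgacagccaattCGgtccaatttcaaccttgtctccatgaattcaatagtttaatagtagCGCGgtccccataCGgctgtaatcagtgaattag
Hoxb1 promoter, chr11:96365508-96365807, plus strand: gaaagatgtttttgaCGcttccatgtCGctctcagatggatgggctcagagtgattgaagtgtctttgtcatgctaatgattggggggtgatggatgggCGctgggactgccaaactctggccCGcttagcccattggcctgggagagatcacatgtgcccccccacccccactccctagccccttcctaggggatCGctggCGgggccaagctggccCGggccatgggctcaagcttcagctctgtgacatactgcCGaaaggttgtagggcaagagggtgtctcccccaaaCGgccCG
Hoxa7 promoter, chr6:52218524-52218823, minus strand: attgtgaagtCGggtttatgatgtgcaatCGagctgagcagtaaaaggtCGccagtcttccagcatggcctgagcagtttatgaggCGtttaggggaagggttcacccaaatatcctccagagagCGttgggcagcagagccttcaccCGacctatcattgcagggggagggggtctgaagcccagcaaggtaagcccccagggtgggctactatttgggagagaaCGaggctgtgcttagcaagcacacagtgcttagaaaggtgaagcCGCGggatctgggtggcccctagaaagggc

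The motif counted in these sequences was CG, which reads the same on both strands. It occurred 45 times in the Hoxa13 promoter, 29 times in that of Hoxa5, 9 times in those of Hoxa2 and Hoxa7, and 10 times in that of Hoxb1. The median was 14.5 over the 24 Hox promoters and 7 over all promoters, and 94.8% of all promoters held at least 1 CG. The windows holding the Hoxa13 promoter averaged 2.37%, those of Hoxa5 3.11% and those of Hoxa2 1.64%, while those of Hoxb1 averaged 22.7% and those of Hoxa7 22.9%. Hoxa2 and Hoxa7, with the same number of CpG sites, were the lowest and the highest of the 24.

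The clusters also hold microRNA genes of a pair of families, shown because their copies lie at places of very different methylation. The seed, bases 2 to 8 of the mature microRNA that pair with target messages, is in capitals.
miR-10a-5p: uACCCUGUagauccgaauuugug
miR-10b-5p: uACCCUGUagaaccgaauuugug
miR-196a-5p: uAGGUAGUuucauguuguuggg
miR-196b-5p: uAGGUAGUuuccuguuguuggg

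The miR-10 sequences share the seed ACCCUGU and the miR-196 sequences the seed AGGUAGU. Mir10a lies in HoxB (chr11:96317186-96317208, plus strand) in a window at 49.2% ± 3.10 in aged and 49.6% ± 5.37 in mAdu samples (SD, n = 3 each), and Mir10b in HoxD (chr2:74726074-74726096, plus strand) in a window at 8.12% ± 2.57 in aged and 8.38% ± 3.15 in mAdu samples. The copies of Mir196a stood at 21.5% ± 4.93 in aged and 17.3% ± 3.001 in mAdu samples in HoxB (chr11:96265187-96265208, plus strand), and at 5.38% ± 1.69 in aged and 3.63% ± 2.06 in mAdu samples in HoxC. Mir196b in HoxA stood at 4.96% ± 1.85 in aged and 4.01% ± 0.485 in mAdu samples. At each of these microRNA genes the values of both groups overlapped, and both HoxB copies were more methylated than their relatives in the other clusters.

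Windows inside the clusters were mostly far less methylated than windows across all autosomes. Of the 451 windows inside the clusters, 290 were under 20%, which is 64.3% of them, against 2.89% of all windows. Their median level was 8.96%. Only 34 windows inside the clusters, 7.54%, were above 80%, against 44.0% of all windows. These values are a description of the 6 samples together.

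The 4 clusters differed widely from one another. HoxC (chr15:102921131-103036856) averaged 6.65% over 100 windows, 93 of them under 20%, and its most methylated window stood at 28.2%. HoxD (chr2:74668225-74765142) averaged 17.5% over 93 windows, 72 of them under 20%, and HoxA (chr6:52162417-52260880) averaged 21.3% over 92 windows, 61 of them under 20%. HoxB (chr11:96194316-96368254), the longest, averaged 41.6% over 166 windows, of which 64 were under 20% and 26 above 80%. In every one of the 6 samples HoxB was the highest, HoxA the second, HoxD the third and HoxC the lowest, and no value of one cluster overlapped that of another.

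**Figure D1:**
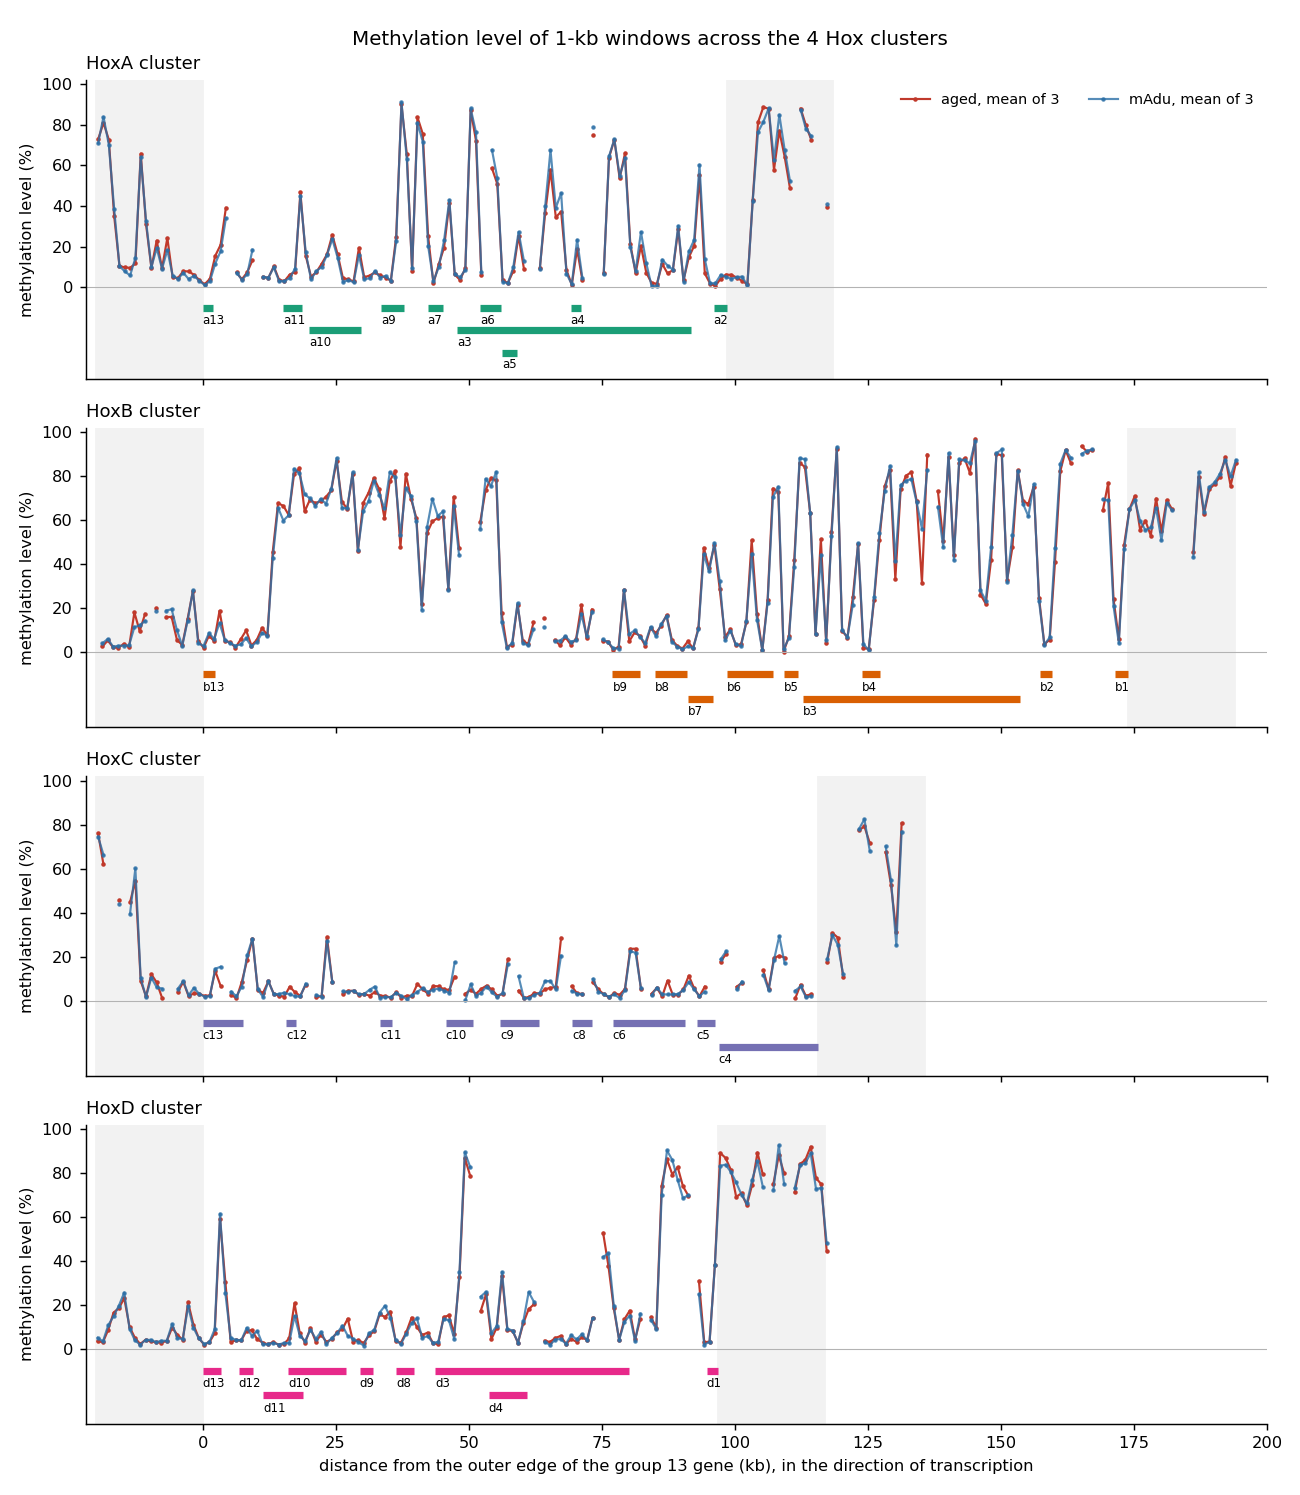
Mean methylation level (percent) of each 1-kb window across the 4 Hox clusters, plotted against the distance in kb from the outer edge of the group 13 gene in the direction of transcription, as the mean of 3 aged (red) and 3 mAdu (blue) samples. Bars mark the member genes and grey areas the 20 kb on each side; HoxC stays under 30% throughout its 100 windows, HoxB holds a long methylated stretch between Hoxb13 and Hoxb9, and the aged and mAdu lines lie close together.

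Windows under 20% formed long runs. A run was counted as ended by a window of 20% or more, or by a position without a window. In HoxD, 43 consecutive windows (chr2:74673001-74716000) had a mean under 20%, from Hoxd12, a limb gene, to the start of Hoxd3, a gene of the neck vertebrae. Hoxd11, Hoxd10, Hoxd9 and Hoxd8, which pattern the limbs and the hind trunk, lie within it. Of 29910 such runs on the autosomes it was the longest. In single samples the run was 30, 43 and 30 windows long in aged and 29, 43 and 29 windows in mAdu samples, so one or a few windows near the threshold divided it in 4 of the 6 samples. The longest run of HoxC covered 22 windows (chr15:102947001-102969000) around Hoxc11 and the upstream part of Hoxc10, and was 22, 22 and 22 windows long in aged and 22, 21 and 22 windows in mAdu samples. In HoxB the longest run within the gene-rich part held 14 windows (chr11:96274001-96288000) over Hoxb9 to Hoxb7, in all 6 samples. HoxA had 19 separate runs, of which the longest held 11 windows (chr6:52225001-52236000) from Hoxa9 to Hoxa10. In HoxA the longest run of single samples held 11, 9 and 11 windows in aged and 11, 11 and 7 windows in mAdu samples. HoxC had 17 runs, with 93 of its 100 windows under 20% and windows at only 100 of its 116 positions. HoxA had windows at 92 of 99 positions. Run counts and lengths thus also reflect missing windows, and the clusters were not ranked by them. Of the 136 runs of 10 or more windows on the autosomes, 9 lay in Hox clusters.

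Stretches of windows above 50% interrupted HoxA, HoxB and HoxD at particular places, and no window of HoxC was above 50%. The largest was in the long gap between Hoxb13, a gene of the tail end and the prostate, and Hoxb9, where 15 consecutive windows averaged 71.8% (chr11:96208001-96223000) and were followed by a further 11 at 70.2%. A second methylated zone filled the intergenic part between Hoxb2 and Hoxb1, which averaged 84.9% ± 1.15 in aged and 84.9% ± 0.358 in mAdu samples. In HoxD the stretch between Hoxd3 and Hoxd1 held 6 windows at 77.3% (chr2:74754001-74760000), and inside Hoxd3 a pair of windows averaged 84.5%. In HoxA the window with the highest level, 90.4%, lay at the far side of Hoxa9, a gene of blood cell development, and 4 windows inside the long span of Hoxa3 averaged 63.9%.

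The ends of the clusters were not alike. The 20 kb on the group 13 side averaged 10.4% at HoxB and 8.34% at HoxD, close to the levels inside HoxC, and 24.7% at HoxA and 22.7% at HoxC. On the opposite side, next to the group 1 to 4 genes, the 20 kb averaged 76.8% at HoxD, 68.7% at HoxB, 53.0% at HoxA and 49.6% at HoxC. At every cluster the group 13 side was the less methylated of the 2 flanks. Windows that overlapped a member were lower than windows between members in HoxD (13.7% against 29.7%) and in HoxB (36.5% against 46.7%), and differed little in HoxA (21.0% against 22.2%) and HoxC (6.88% against 6.35%).

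Each gene was next read at its start side, from 1000 bp outside to 500 bp inside the edge where transcription begins, at its far side, the same stretch at the other edge, and over its whole span. The start side had a median of 4.47% over the 38 members, against 71.9% over all gene ends, and 30 of the 38 (78.9%) lay under 20%, against 9.59% of all gene ends. Far sides had a median of 12.5% over 37 members, with 25 under 20%. Hoxc4 had no window at its far side. Whole spans had a median of 9.70%, against 73.0% for all gene spans, and 29 of 38 lay under 20%, against 3.16% of all spans. The start sides ranged from 1.64% at Hoxa2, which gives the second pharyngeal arch its identity, to 86.6% at Hoxb3.

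**Figure D2:**
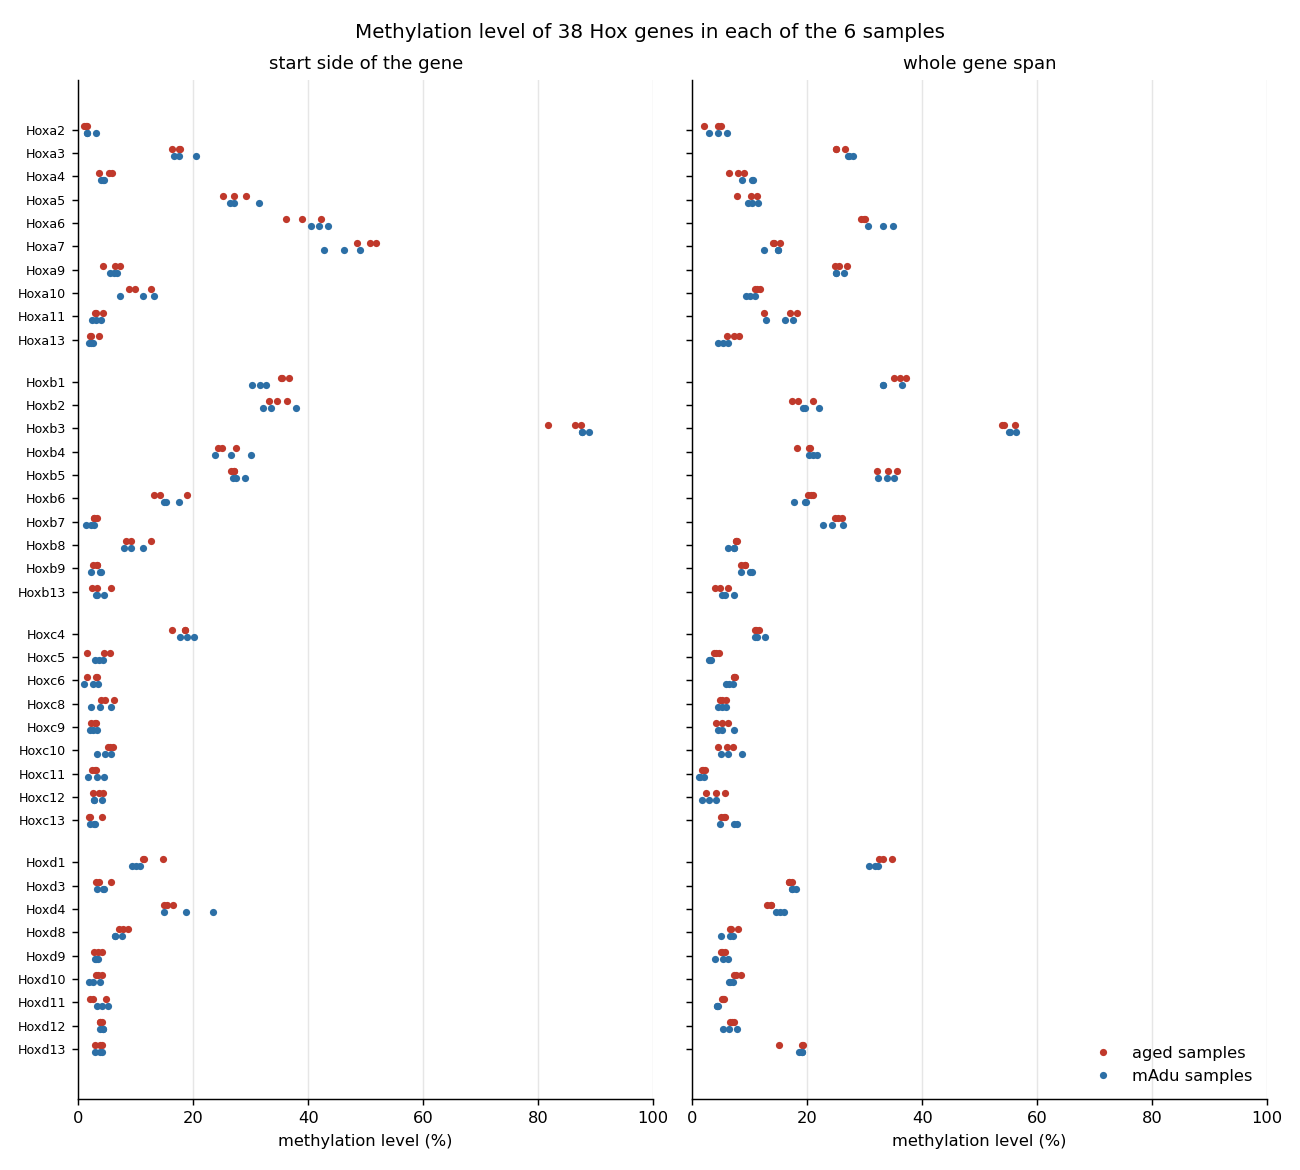
Methylation level (percent, horizontal axis) of each of the 38 Hox genes at its start side (left panel) and over its whole span (right panel), with 1 point for each of the 3 aged (red) and 3 mAdu (blue) samples and the genes in rows by cluster. The mean over the 6 samples is under 20% at all 9 HoxC and all 9 HoxD start sides, with mAdu sample 2 above it at Hoxc4 (20.1%) and Hoxd4 (23.5%), Hoxb3 stands apart at a mean of 86.6%, and the points of both ages mostly lie within a few points of each other.

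The genes of groups 9 to 13 pattern the hind trunk, limbs and urogenital tract. At the start side and over the span they were the least methylated by median. Their 16 start sides had a median of 3.29%, and all 16 were under 20%. Within this set the order ran from 2.37% at Hoxa13, a gene of the digits and the urogenital tract, to 10.51% at Hoxa10, a gene of the lumbar skeleton and the uterus. Hoxa13 stood at 2.11%, 3.51% and 2.01% in aged and at 2.51%, 1.88% and 2.22% in mAdu samples. Its values overlapped those of its paralogs Hoxc13 (2.55%), a gene of hair and nails, Hoxd13 (3.55%), a gene of the digits, and Hoxb13 (3.64%), so the order of the 4 group 13 genes could not be told apart by these samples. The spans of the same 16 genes had a median of 6.20%, and the exceptions above 15% were Hoxa9 (25.6%), Hoxd13 (18.4%) and Hoxa11 (15.7%), a gene of the forearm.

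The genes of groups 5 to 8, which act mainly in the trunk, were uneven. Their 11 start sides had a median of 9.73%, and 7 were under 20%. Hoxa7 and Hoxa6, thoracic patterning genes, were the highest of these at 48.2% and 40.5%. Hoxa7 stood at 48.5%, 51.8% and 50.8% in aged and at 49.0%, 42.8% and 46.3% in mAdu samples, and Hoxa6 at 42.2%, 36.1% and 39.0% in aged and at 43.4%, 41.8% and 40.4% in mAdu samples. The values of aged and mAdu samples overlapped at both. Hoxa5 and its paralog Hoxb5, a gene also active in blood stem cells, had similar start sides of 27.7% and 27.3%, while Hoxc5 was at 3.69%. The lowest of groups 5 to 8 were Hoxc6 (2.44%) and Hoxb7 (2.47%), which are also trunk genes. The start side of Hoxb7 and the far side of Hoxb8 are the same windows.

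Genes of groups 1 to 4, of the hindbrain, neck and pharyngeal arches, were higher still, with a median start side of 17.7% and 7 of 11 under 20%. Hoxb1, which gives a hindbrain segment its identity, stood at 35.4%, 35.2% and 36.7% in aged and at 32.6%, 30.3% and 31.5% in mAdu samples. Hoxb2, another hindbrain gene, averaged 34.6%, and Hoxb4, used to expand blood stem cells, 26.2%. By contrast Hoxa2 (1.64%), Hoxd3 (4.02%) and Hoxa4 (4.54%) were among the low start sides of the family. Hoxb3 was the only member of the 38 with a start side above 50%, at 86.5%, 87.5% and 81.7% in aged and at 88.8%, 87.7% and 87.6% in mAdu samples. The edge used is that of the whole gene span, which for Hoxb3, Hoxb8, Hoxc4 and Hoxd10 need not be that of the main promoter.

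**Figure D3:**
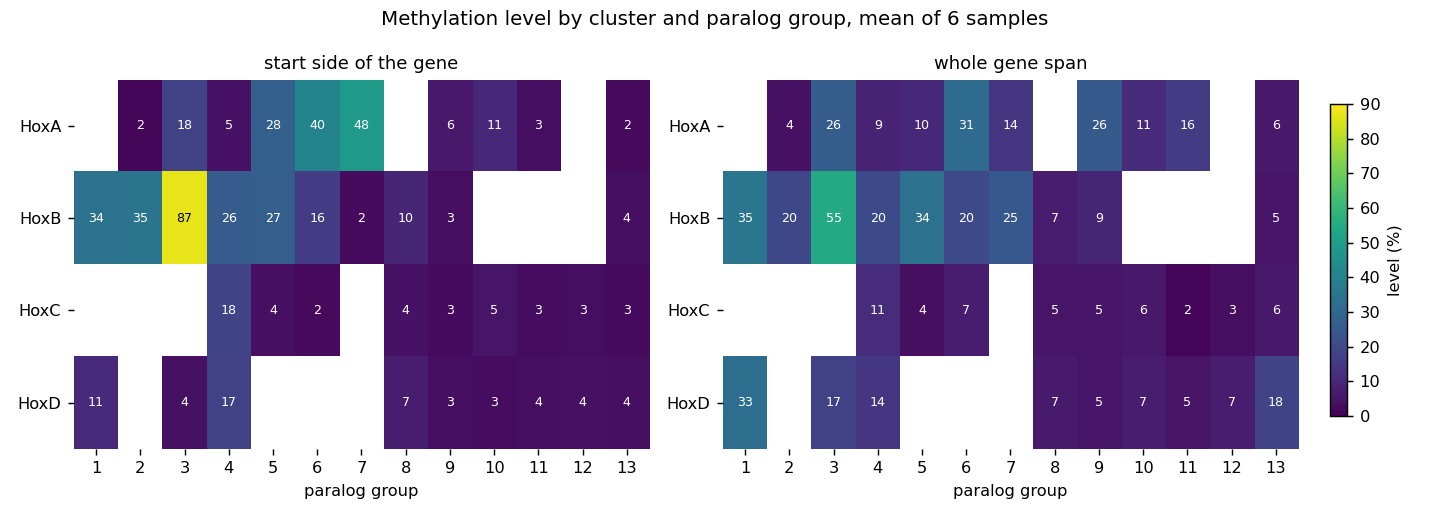
Methylation level (percent, color and printed number, mean of the 6 samples) of each Hox gene by cluster (rows) and paralog group (columns), at the start side (left) and over the whole span (right); blank squares hold no listed gene. Groups 9 to 13 are uniformly low at the start side, and the HoxB row is the most methylated in groups 1 to 4.

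Across the 38 members the start-side level was lower at higher group numbers (Pearson r −0.486, Spearman rho −0.558 over 38 genes, which are not independent because neighbours share windows). At the start side the trend was clearest within HoxB (r −0.659, rho −0.855 over 10 genes) and HoxD (r −0.646, rho −0.650 over 9 genes). It was weaker in HoxC (r −0.561, rho −0.4 over 9 genes) and weakest in HoxA (r −0.211, rho −0.103 over 10 genes). Over the spans rho was −0.721 in HoxB, −0.433 in HoxC, −0.35 in HoxD and 0.0788 in HoxA, so the place of HoxD depends on the part read. Of 280 windows that overlap a member, 28 overlap more than one. Paralogs were not equally methylated at the start side, though the edge of Hoxb3 need not be that of its main promoter. In group 3 the start sides were 17.7% at Hoxa3, 86.6% at Hoxb3 and 4.02% at Hoxd3, and in group 7 they were 48.2% at Hoxa7 and 2.47% at Hoxb7. In groups 11 and 13 all start sides lay between 2.37% and 3.65%. The RefSeq promoters stood at 6.54% at Hoxa3, 2.71% at Hoxd3 and 22.9% at Hoxa7. None is listed for Hoxb3 or Hoxb7, so these paralogs could not be compared there.

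The RefSeq promoters, which are narrower than the start sides, were lower at several genes. Their median level was 3.56%, against 27.6% over all promoters, and 22 of 24 lay under 20%, against 46.4% of all promoters. At Hoxa5 the promoter windows averaged 3.11% and the start side 27.7%, at Hoxb4 they were 2.95% and 26.2%, and at Hoxa6 6.87% and 40.5%. Hoxb8 was the other way round, with its listed promoter inside the gene at 16.7% and its start side at 9.73%. At Hoxa7 and Hoxb1 the promoter windows were also below the start side (22.9% against 48.2% and 22.7% against 33.6%) but were still the highest of the 24. The Hoxc4 promoter that is listed lies inside the span of the gene and was at 1.96%. A trend with group number was not tested at the promoters. Of groups 1 to 4, Hoxa2 (1.64%), Hoxc4, Hoxd3 (2.71%), Hoxd1 (2.91%) and Hoxb4 lay below the promoter median of 3.56%. Hoxa3 (6.54%), Hoxd4 (15.6%) and Hoxb1 lay above it. In groups 9 to 13 the levels ran from 1.99% at a Hoxd11 promoter to 10.5% at a Hoxa10 promoter. The level and the CpG number of the 24 promoters were weakly related (r −0.345, rho −0.244), as against r −0.712 over all promoters, both described across promoters that are not independent.

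Other genes of the Hox system were read for comparison, from lists chosen by name. The Pbx, Meis and Pknox cofactors, which bind DNA together with Hox proteins, had a median span of 72.6% over 9 genes, with none under 20%, from 46.3% at Pbx2 to 81.1% at Pknox1. The lower of each cofactor's ends had a median of 5.95%, and 7 of 9 were under 20%. Choosing the lower end favors low values, and no count of lower ends over all genes is given. The counts of lower ends, here and for the regulators, are therefore only a description. The 12 regulators of Hox transcription, among them Polycomb and Trithorax components, had a median span of 74.7%, from 39.05% at Kdm6b, a histone demethylase, to 83.8% at Suz12, a Polycomb protein, with 10 of 12 lower ends under 20%. Related homeobox genes were closer to the Hox genes: their median span was 9.77%, with 8 of 12 under 20%, from 2.19% at Gsx1 to 78.3% at Meox2. Non-coding genes within the clusters had a median span of 12.4%, with 10 of 16 under 20%, from 3.62% at Mir615 to 53.6% at Hoxb3os.

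The comparison of the ages asks how methylation of the Hox clusters differs between aged and mAdu lung endothelium. Over the whole clusters no difference was found beyond the spread between samples. HoxA stood at 20.5%, 20.5% and 21.7% in aged and at 22.0%, 21.1% and 21.6% in mAdu samples, averaging 20.9% ± 0.694 in aged and 21.6% ± 0.424 in mAdu samples (difference −0.659, exact permutation p = 0.3). HoxB stood at 41.9%, 41.3% and 41.7% in aged and at 41.5%, 41.5% and 41.6% in mAdu samples, averaging 41.6% ± 0.326 in aged and 41.5% ± 0.0602 in mAdu samples (difference 0.118, exact permutation p = 0.6). HoxC stood at 6.47%, 6.93% and 6.66% in aged and at 6.18%, 7.02% and 6.66% in mAdu samples, averaging 6.69% ± 0.231 in aged and 6.62% ± 0.424 in mAdu samples (difference 0.070, exact permutation p = 1). The aged and mAdu values of these 3 clusters lay among each other. HoxD stood at 17.5%, 17.8% and 17.4% in aged and at 17.7%, 17.1% and 17.6% in mAdu samples, averaging 17.5% ± 0.201 in aged and 17.5% ± 0.321 in mAdu samples (difference 0.066, exact permutation p = 0.8). All tests were two-sided, and every Benjamini-Hochberg adjusted p over the 4 clusters was 1. With 3 samples against 3 the smallest p such a test can give is 0.1, and the values of aged and mAdu samples overlapped in all 4 clusters.

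**Figure D4:**
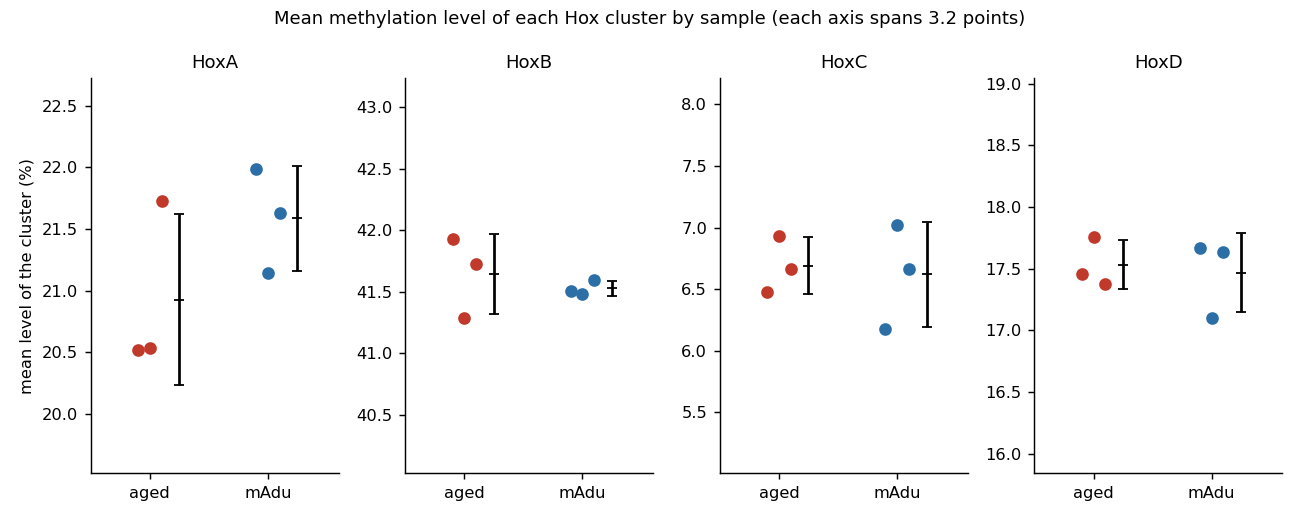
Mean methylation level (percent) of each Hox cluster in the 3 aged (left) and 3 mAdu (right) samples, with the mean and SD of each group as a bar beside the points; every axis spans 3.2 points. HoxA differs the most, by −0.659 points, and the points of aged and mAdu samples overlap in every cluster.

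The share of windows under 20% did not pass the same test either. It was 68.1% in aged and 67.4% in mAdu samples for HoxA, 37.8% in aged and 39.6% in mAdu samples for HoxB, 92.3% in aged and 91.7% in mAdu samples for HoxC, and 78.1% in aged and 76.3% in mAdu samples for HoxD. The exact permutation p was 1, 0.2, 0.7 and 0.3 in that order, and 1, 0.6, 0.933 and 0.6 after adjustment over the 4 clusters. Only the windows between the members of HoxB showed groups that did not overlap. The share there was 32.9% ± 0.696 in aged and 35.7% ± 1.39 in mAdu samples (exact permutation p = 0.1, not adjusted). That is the smallest p that this design allows. It came from many shares: whole clusters, windows over members, windows between members and both flanks. The mean level of the same windows overlapped, at 46.9% in aged and 46.5% in mAdu samples (exact permutation p = 0.3).

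None of the 585 windows, 75 start and far sides or 38 spans passed the threshold when all windows, ends or spans of the genome were tested together with limma. The background was 0.0211% of all windows, 0.0147% of all gene ends and 0.0112% of all gene spans called at an adjusted p under 0.05. The smallest adjusted p in limma was 0.978 for the windows, 0.975 for the ends and 0.935 for the spans. At an unadjusted p under 0.05 there were 30 of 585 windows (5.13%, against 4.67% of all windows), 1 start side and 2 far sides (4.95% of all ends), and 5 of 38 spans (13.2%, against 5.09% of all spans). For 31 of 38 start sides, 19 of 37 far sides and 36 of 38 spans, limma's 95% interval did not extend beyond 5 points in either direction. The same held for 38.1% of all gene ends and 68.2% of all gene spans. Against median levels of 4.47% at the start side and 9.70% over the span, 5 points is a wide bound. Some intervals, which are not adjusted, left out 0, such as those of the Hoxd11 span (0.175 to 1.76) and the Hoxd4 span (−3.21 to −0.344). After adjustment no member was found to differ.

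Members whose groups did not overlap were counted beside the same count over all genes. Among the start sides there were 5 of 38 (13.2%, against 10.1% of all gene ends), and among the far sides 4 of 37 (10.8%). Among the spans there were 11 of 38 (28.9%, against 10.2% of all gene spans), 7 of them higher in aged samples, as 4.68% of all spans were (Hoxb6, Hoxb8, Hoxc5, Hoxc6, Hoxd1, Hoxd10 and Hoxd11) and 4 lower, as 5.54% of all spans were (Hoxa3, Hoxa6, Hoxd3 and Hoxd4). Of these 11, 6 share a window with another of the 11, so they are not independent. No adjusted p for these spans was under 0.935 in limma, and differences were small: the largest of the 11 were −3.19 points at Hoxa6 and 1.84 points at Hoxd1. Whatever the overlap, 21 of the 38 spans were higher in aged samples (48.1% of all gene spans were), with 2 of 11 higher in groups 1 to 4, 9 of 11 in groups 5 to 8 and 10 of 16 in groups 9 to 13. In the same order of groups, the start sides higher in aged samples were 5 of 11, 7 of 11 and 9 of 16. The far sides were 5 of 10, 3 of 11 and 10 of 16. The direction by group thus depended on the part read, and spans that share windows are not independent. Among the windows, 55 of 585 did not overlap (9.40%, against 10% of all windows).

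**Figure D5:**
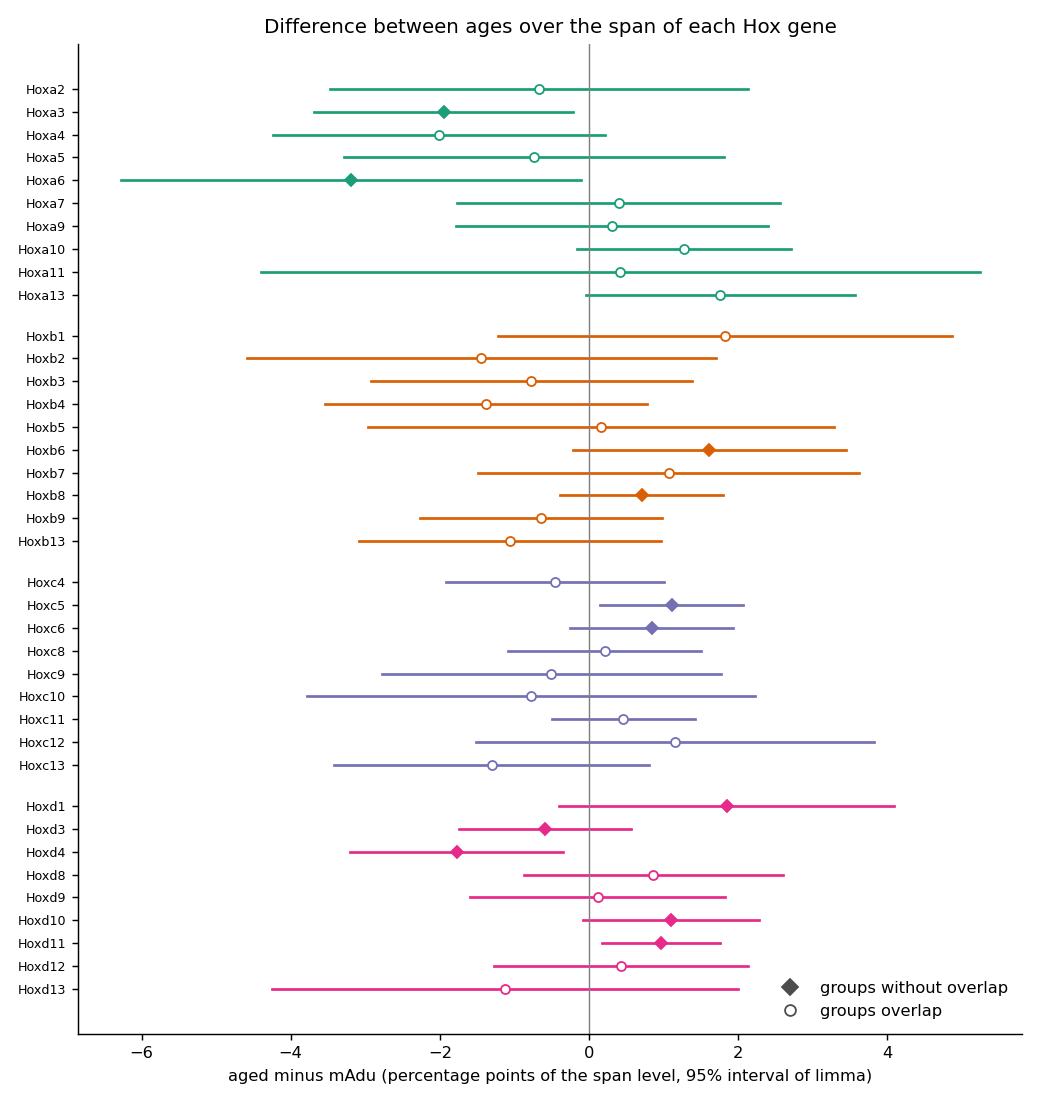
Difference in the span methylation level of each Hox gene, aged minus mAdu, in percentage points (horizontal axis), with the 95% interval from limma as a line; filled diamonds mark genes whose aged and mAdu samples do not overlap and open circles the others, colored by cluster. No gene lies farther from 0 than the −3.19 points of Hoxa6, and 5 of 38 have an unadjusted p under 0.05.

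Single members are given by the rule that named the 3 with the smallest p in each direction, none of which passed the threshold. At the start side, Hoxb1 was 4.32 points higher in aged samples (SE 1.10, limma's adjusted p = 0.975), with the values listed above, all 3 aged samples above all 3 mAdu samples. Hoxa7 was 4.33 points higher in aged samples (SE 1.995, limma's adjusted p = 0.975), with an overlap at 1 aged sample. Hoxd1 stood at 11.4%, 14.7% and 11.2% in aged and at 9.96%, 9.31% and 10.7% in mAdu samples, without overlap (difference 2.43, SE 1.03). Among the lower ones, Hoxd4, a gene of the neck vertebrae, had a difference of −3.45 (SE 2.05) and stood at 16.5%, 14.8% and 15.4% in aged and at 14.9%, 23.5% and 18.6% in mAdu samples, with mAdu sample 2 far above the rest. Hoxb3 had a difference of −2.81 (SE 1.71), where the samples did not overlap, and Hoxa6 one of −2.79 (SE 1.85). Single samples weighed heavily on these differences. Without aged sample 3 the Hoxb3 difference was −1.04, and without aged sample 2 those of Hoxa6 and Hoxd1 were −1.29 and 1.32. Without mAdu sample 2 the difference was −1.21 at Hoxd4 and 2.72 at Hoxa7. It was larger without aged sample 1 at Hoxa6 (−4.34) and without mAdu sample 1 at Hoxd4 (−5.51).

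Over the span, Hoxd11, a gene of the forearm and kidney, stood at 5.14%, 5.27% and 5.56% in aged and at 4.26%, 4.29% and 4.51% in mAdu samples (difference 0.97, SE 0.317, limma's adjusted p = 0.939). All 3 aged samples were above all 3 mAdu samples. Hoxc5 and Hoxa13 were 1.11 and 1.76 points higher in aged samples. Hoxd4 stood at 13.8%, 13.7% and 13.02% in aged and at 14.5%, 15.3% and 16.0% in mAdu samples (difference −1.77, SE 0.571, limma's adjusted p = 0.935), and Hoxa3, a gene of the thymus and parathyroid, at 25.04%, 24.99% and 26.5% in aged and at 28.0%, 27.3% and 27.1% in mAdu samples (difference −1.95, SE 0.693). Hoxa6 stood at 29.9%, 29.3% and 30.0% in aged and at 30.6%, 35.0% and 33.2% in mAdu samples (difference −3.19, SE 1.23). At these 3 genes every aged sample was below every mAdu sample. At the far sides the named members were Hoxa13 (2.72), Hoxd3 (1.37) and Hoxc12 (1.04), higher in aged samples, and Hoxa4 (−2.87), Hoxb2 (−3.63) and Hoxa5 (−2.54), lower. Without aged sample 2 the difference was −0.903 at Hoxa5 and −1.85 at Hoxa4. Without mAdu sample 1 it was −2.09 at Hoxb2, and without mAdu sample 3 it was 0.627 at Hoxc12.

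Among single windows, the one with the smallest p was HoxC window chr15:102970001-102971000 within Hoxc10, at 2.45%, 3.597% and 3.44% in aged and at 0.148%, 0.0893% and 0.0783% in mAdu samples (difference 3.06). All 3 mAdu samples were close to 0, and the 3 aged values were also low, below the median window inside HoxC (4.52%). HoxD window chr2:74695001-74696000, at the far edge of Hoxd10, was at 11.03%, 16.3% and 13.995% in aged and at 3.08%, 4.23% and 10.8% in mAdu samples (difference 7.75). HoxD window chr2:74685001-74686000, in Hoxd11 and Hoxd10, was at 20.4%, 19.8% and 22.1% in aged and at 16.0%, 14.9% and 14.1% in mAdu samples (difference 5.75). HoxA window chr6:52193001-52194000 in Hoxa3 was at 35.1%, 37.5% and 39.1% in aged and at 47.7%, 49.3% and 42.1% in mAdu samples (difference −9.11). The other windows named by the same rule were chr11:96232001-96233000 between Hoxb13 and Hoxb9 (difference 6.64), chr6:52251001-52252000 between Hoxa13 and Hoxa11 (−5.17), chr2:74722001-74723000 in Hoxd4 and Hoxd3 (−2.73) and chr15:102952001-102953000 between Hoxc12 and Hoxc11 (−2.68). At all 8 the aged and mAdu samples did not overlap, and none passed limma's threshold (smallest adjusted p = 0.978).

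The RefSeq promoters were tested in the same way over all 29229 promoters with a value, of which 0.0103% were called, and 0 of the 24 Hox promoters were called (smallest adjusted p in limma 0.939). Of the 24, 2 had an unadjusted p under 0.05 in limma (4.68% of all promoters did), and the aged and mAdu samples of 6 of the 24 (25%, against 10.4% of all promoters) did not overlap. The Hoxa7 promoter, printed above, stood at 23.9%, 27.5% and 24.4% in aged and at 23.7%, 19.4% and 18.5% in mAdu samples (difference 4.73, SE 1.80). The Hoxb1 promoter stood at 23.8%, 23.8% and 25.4% in aged and at 22.2%, 21.6% and 19.4% in mAdu samples (difference 3.26, SE 1.28). At both, all 3 aged samples were above all 3 mAdu samples, and mAdu sample 1 came nearest to them. At the remaining 4, Hoxd10 was higher and Hoxa2, Hoxa6 and Hoxb4 were lower in aged samples, by less than 2 points each. Except at Hoxd10, the promoter windows of these 6 lie within the start sides of their genes. At Hoxa2 they are the same windows. The count of 6 is therefore not independent of the start sides given above. None of the comparison lists (cofactors, regulators, related homeobox genes or non-coding genes) held a called span or end.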

How the data were processed

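DNA methylation was measured in endothelial cells of the lung by tagmentation-based whole-genome bisulfite sequencing. Per the labels' protocols, 30 ng of DNA was used per sample and 3 libraries per sample were sequenced. The submitters' processing notes name BWA 0.7.8 and mm10. The sources used here do not give the CpG caller, the coverage filter or how windows were averaged. The authors deposited, for each sample, the mean methylation of 1000-bp windows as a fraction from 0 to 1, with no coverage, so depth and counting error are unknown and only the spread between 3 samples a group measures precision. Values were multiplied by 100, and the 1683697 windows complete in all 6 samples were used.

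Gene spans, promoters and strands came from RefSeq tables of GRCm38.p6, the build of mm10. The strand of 16 members without a promoter entry was taken from their cluster. A region is the mean of the windows that overlap it. Windows, ends and spans of all autosomal genes entered limma 3.58.1 (R 4.3.3) in percent, with group as the only term and a trend in the variance, and p-values were adjusted by Benjamini-Hochberg over all features at 0.05. Cluster levels were compared with an exact two-sided permutation test. Promoters of the RefSeq table, an alternative chosen after seeing the data, were tested in the same way. The scripts were tested on simulated data. Series design text names 8 and 18 months without tying them to titles; the titles decided which group was which. The members and lists were chosen with earlier results of these data known. For each kind of region the named members were the 3 with the smallest p in each direction, and 4 for windows. Alternatives covered missing and extreme windows, a logit scale, the variance model, region extents, thresholds, a replicate block and leaving out each sample.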

Additional observations from a re-analysis of the deposited data

How the results depend on the processing

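Of 599 alternative values of 50 results, 576 were labelled the same, 11 reversed and 12 moved. A difference labelled the same did not change sign, but its size could change. At the Hoxb3 start side it went from −2.81 to −1.04 points without aged sample 3. The HoxB mean level difference went from 0.118 to 0.297 points without aged sample 2. The permutation p of a cluster could not go under 0.1 in any setting. The number labelled the same is therefore not a measure of how stable the sizes are. No window, end or span of the Hox clusters passed the threshold of limma under any alternative run, leaving out each sample included (0 in each). Read depth is unknown and 3 samples a group limit the precision. All 11 reversals were of differences between whole clusters, none of which passed its test.

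The HoxB level difference reversed to −0.549 points with the median over windows. Leaving out each sample in turn gave −0.0221 to 0.297 points for HoxB, −0.152 to 0.270 for HoxC and −0.119 to 0.166 for HoxD: HoxB reversed without aged 1, HoxC without aged 2 or mAdu 1, and HoxD without aged 2 or mAdu 2. HoxA kept its sign, between −1.06 and −0.453. The share of windows under 20% reversed in HoxA with 20 kb on each side (−0.260), in HoxD at a threshold of 10% (−2.51) and of 50% (−0.358), and in HoxB at a threshold of 50% (0.803). For HoxC it lay between −0.167 and 1.33 when each sample was left out, and reversed without mAdu 3. The cause was not tested.

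The number of spans without overlap of the groups was 11 of 38, also with windows that had at least 2 values per group and without extreme windows, and 8 of 27 with interior windows only (29.6%, against 10.1% of all such spans). In groups 1 to 4 the spans higher in aged samples numbered 0 with interior windows and 4 without mAdu 2. Named members and windows kept their sign in every leave-one-out setting. The differences of 5 start sides and 4 far sides changed in size by over 1.5 times, as given with them above. Same-numbered samples did not deviate together (correlations over all windows −0.0116, −0.0167 and −0.000645). With unknown depth, noise in single windows could hide a weak link, so this does not settle whether the numbers pair the samples. A replicate block gave 0 calls, as the main fit did.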

Other observations

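The transcripts that run along the clusters differed among themselves. Hotairm1, at the Hoxa2 end of HoxA, stood at 4.42%, 4.87% and 3.91% in aged and at 2.87%, 5.34% and 4.20% in mAdu samples over its span. Hottip, beyond Hoxa13 at the other end, stood at 11.1%, 8.06% and 8.72% in aged and at 6.06%, 9.07% and 7.5001% in mAdu samples. Hotair, in HoxC, stood at 13.4%, 15.1% and 12.2% in aged and at 10.1%, 18.2% and 11.6% in mAdu samples. Haglr, between Hoxd3 and Hoxd1, was far higher, at 43.6%, 43.2% and 42.2% in aged and at 42.6%, 40.8% and 42.4% in mAdu samples. The aged and mAdu samples overlapped at each of these 4 genes, which were picked for their places in the clusters after their values were seen.

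Of the 16 non-coding genes, 3 had groups without overlap (10.2% of all gene spans did), and none passed limma's threshold. Hoxaas2, largely between Hoxa2 and Hoxa3, stood at 19.3%, 20.4% and 19.7% in aged and at 25.7%, 20.6% and 23.9% in mAdu samples (difference −3.61, limma's adjusted p = 0.961). Hoxaas3, over Hoxa5 and Hoxa6, stood at 28.4%, 26.6% and 28.2% in aged and at 28.8%, 30.8% and 29.2% in mAdu samples (difference −1.84, limma's adjusted p = 0.975). Both were lower in every aged sample than in any mAdu sample. They share windows with Hoxa3, and Hoxaas3 also with Hoxa6, which are among the 11 member spans without overlap. They are therefore not independent of those spans. Mir615, within Hoxc5, covers the same windows as that gene and stood at 4.18%, 3.70% and 4.64% in aged and at 2.87%, 3.02% and 3.31% in mAdu samples (difference 1.11, limma's adjusted p = 0.955), higher in every aged sample than in any mAdu sample.

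Homeobox genes next to the clusters were also lowly methylated. Evx1, beside HoxA, stood at 11.7%, 11.7% and 12.9% in aged and at 13.1%, 10.2% and 10.95% in mAdu samples, and Evx2, beside HoxD, at 7.18%, 7.60% and 8.09% in aged and at 8.63%, 6.67% and 8.47% in mAdu samples. The aged and mAdu samples overlapped at both.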
